A study of Mus musculus with 4 samples.

Results

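Polycomb repressive complex 2 (PRC2) was followed here through 7 genes, Ezh2, Ezh1, Eed, Suz12, Rbbp4, Rbbp7 and Jarid2, out of 31053 genes counted in each cell. The genes were listed by name as subunits of the complex, with earlier results of these data known. All 7 were in the count matrices and all 7 passed the low-count filter of every test below. Levels were taken in the germinal centre (GC) B cell subtypes of the deposited annotation, along its pseudotime, in 4 genotypes, and in B and T cells outside the annotation. The data were single-cell RNA-seq libraries of spleen cells sorted as B220+IgD-, from 1 mouse per genotype, 10 days after sheep red blood cells (SRBC) were given to raise a GC response. WT mice carried the Cγ1-Cre allele alone (Cγ1 cre/+). C mice added 1 floxed Crebbp allele (Cγ1 cre/+;Crebbp fl/+), K mice 1 floxed Kmt2d allele (Cγ1 cre/+;Kmt2d fl/+), and CK mice both (Cγ1 cre/+;Crebbp fl/+;Kmt2d fl/+). All were female, age-matched and on the C57BL/6J background. Cγ1-Cre is best known for acting in B cells that enter the GC reaction.

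PRC2 places methyl groups on lysine 27 of histone H3, a mark of silenced genes. Ezh2 or its relative Ezh1 is the catalytic subunit, Suz12 is the scaffold, Eed reads the finished mark and stimulates the enzyme, and Rbbp4 and Rbbp7 bind histones and also serve other chromatin complexes. Jarid2 defines one form of the complex and helps to recruit it, while the Polycomb-like proteins Mtf2, Phf1 and Phf19 define the other. In the GC, EZH2 is known to be abundant in dividing B cells and to be required for GC formation, and it is mutated in lymphomas that arise there. Ezh1 is best known from resting cells.

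The 9804 annotated GC cells numbered 1227 (WT), 2041 (C), 2583 (K) and 3953 (CK), among 39009 barcodes. The subtypes used were early centroblasts, centroblasts (CB), cells in transition from CB to centrocytes (trans_CB_CC), centrocytes (CC) and prememory cells. Recycling cells numbered at most 49 per library and were left out. CB numbered 183 (WT), 421 (C), 645 (K) and 1013 (CK). Non-GC B-like cells (1399 to 3247 per library) and T-like cells (568 to 1178) lay outside the annotation and were named from marker lists, in clusters made without the 7 genes. The 7 T cell markers summed to 8994 to 9841 CPM in T-like cells and to 23.1 to 34.4 CPM in CB, and the 9 GC markers to 2840 to 3109 CPM in CB and 183 to 240.3 CPM in non-GC B-like cells. A pair of further clusters, led by Cd8b1 and by Ccl5, held all 7 T cell markers but were left unnamed, because a marker of another class and none of the T cell list stood among their leading genes. Median depth was 4604 to 5526 unique molecular identifiers (UMIs) per CB and 1222 to 2180 per non-GC B-like cell. In CB the targeted genes were at 64.4 (WT), 45.2 (C), 42.9 (K) and 39.9 CPM (CK) for Crebbp and 24.9 (WT), 15.4 (C), 8.53 (K) and 16.1 CPM (CK) for Kmt2d, and since these libraries read the 3′ ends of transcripts and whether the floxed part is read is not given, the values do not check the genotypes. The K library stood apart: 759 of 851 cells of a Wfdc21-led non-GC B-like cluster, and 976 of 1086 of an Ada-led GC cluster, came from it. A barcode sequence was shared by more than 1 library in 143 cases, 9 of them among annotated cells.

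The promoters of Ezh2 and Suz12 are shown because they were the windows of the 7 genes with an E2F match, and that of Ezh1 as the other catalytic subunit, without one. Each window runs from 250 bases before to 50 bases after the RefSeq start site (build GRCm38.p6), and all 7 genes had an entry. Capitals mark matches to TTTGGCGC, TTTCGCGC, TTTCCCGC or TTTGCCGC on either strand, forms of the site read by the E2F factors that drive S phase genes.
Ezh2 (chr6:47594981-47595280, minus strand): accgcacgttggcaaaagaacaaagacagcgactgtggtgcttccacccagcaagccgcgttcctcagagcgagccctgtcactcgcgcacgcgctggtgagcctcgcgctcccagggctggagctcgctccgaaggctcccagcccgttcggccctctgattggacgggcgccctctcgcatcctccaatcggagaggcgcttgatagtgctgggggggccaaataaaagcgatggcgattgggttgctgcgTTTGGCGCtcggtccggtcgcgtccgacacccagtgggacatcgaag
Suz12 (chr11:79992856-79993155, plus strand): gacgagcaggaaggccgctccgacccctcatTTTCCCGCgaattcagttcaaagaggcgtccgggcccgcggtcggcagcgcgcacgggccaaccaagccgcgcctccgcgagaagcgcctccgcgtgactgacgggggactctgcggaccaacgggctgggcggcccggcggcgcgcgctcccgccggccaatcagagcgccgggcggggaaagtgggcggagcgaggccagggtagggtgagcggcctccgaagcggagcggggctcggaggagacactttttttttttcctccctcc
Ezh1 (chr11:101226414-101226713, minus strand): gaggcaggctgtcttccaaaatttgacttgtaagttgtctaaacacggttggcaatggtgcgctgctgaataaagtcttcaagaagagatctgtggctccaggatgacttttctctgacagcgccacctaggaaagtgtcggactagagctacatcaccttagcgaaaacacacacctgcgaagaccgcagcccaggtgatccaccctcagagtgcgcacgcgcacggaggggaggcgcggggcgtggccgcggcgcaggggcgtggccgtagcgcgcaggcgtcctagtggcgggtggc
Ezh2 and Suz12 held 1 match each, and the windows of Ezh1, Eed, Rbbp4, Rbbp7 and Jarid2 held none. Of 32851 promoter windows of this length, 2.26% held one. The Ezh2 match began at position 4, counted from 1 at the start site, and the Suz12 match at -219. The Ezh2 window also held 3 copies of CCAAT (both strands read), a motif found in 37.4% of windows. The short motif TTTGAA, called the cell cycle homology region in promoters of mitotic genes, was found on either strand in Eed and Suz12 and in 17.9% of windows. No match overlapped another motif in these windows. The matches are letters in a window, and binding was not measured here.

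Ezh2, the main catalytic subunit, was highest in dividing GC B cells of every library. In CB its level was 188 (WT), 234 (C), 208 (K) and 284 CPM (CK), where CPM is UMIs of the gene for each 1000000 UMIs of the summed cells. In CC it was 52.5 (WT), 65.3 (C), 47.5 (K) and 72.7 CPM (CK). The lowest CB library therefore lay above the highest CC library, and trans_CB_CC cells lay between them with 84.4 (WT), 102 (C), 90.2 (K) and 124 CPM (CK). Across the 4 libraries, CB exceeded CC by 1.90 ± 0.09 on the log2 scale (SE), or 3.74-fold (edgeR quasi-likelihood test with library as a block, Benjamini-Hochberg adjusted p = 3.23e-24). Early centroblasts had 199.7 to 275 CPM and overlapped with CB, the WT value resting on 38 cells. Non-GC B-like cells had 29.8 (WT), 33.9 (C), 29.3 (K) and 38.9 CPM (CK), and CB exceeded them 7.21-fold (2.85 ± 0.09 on the log2 scale, adjusted p = 1.61e-32).

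**Figure D1:**
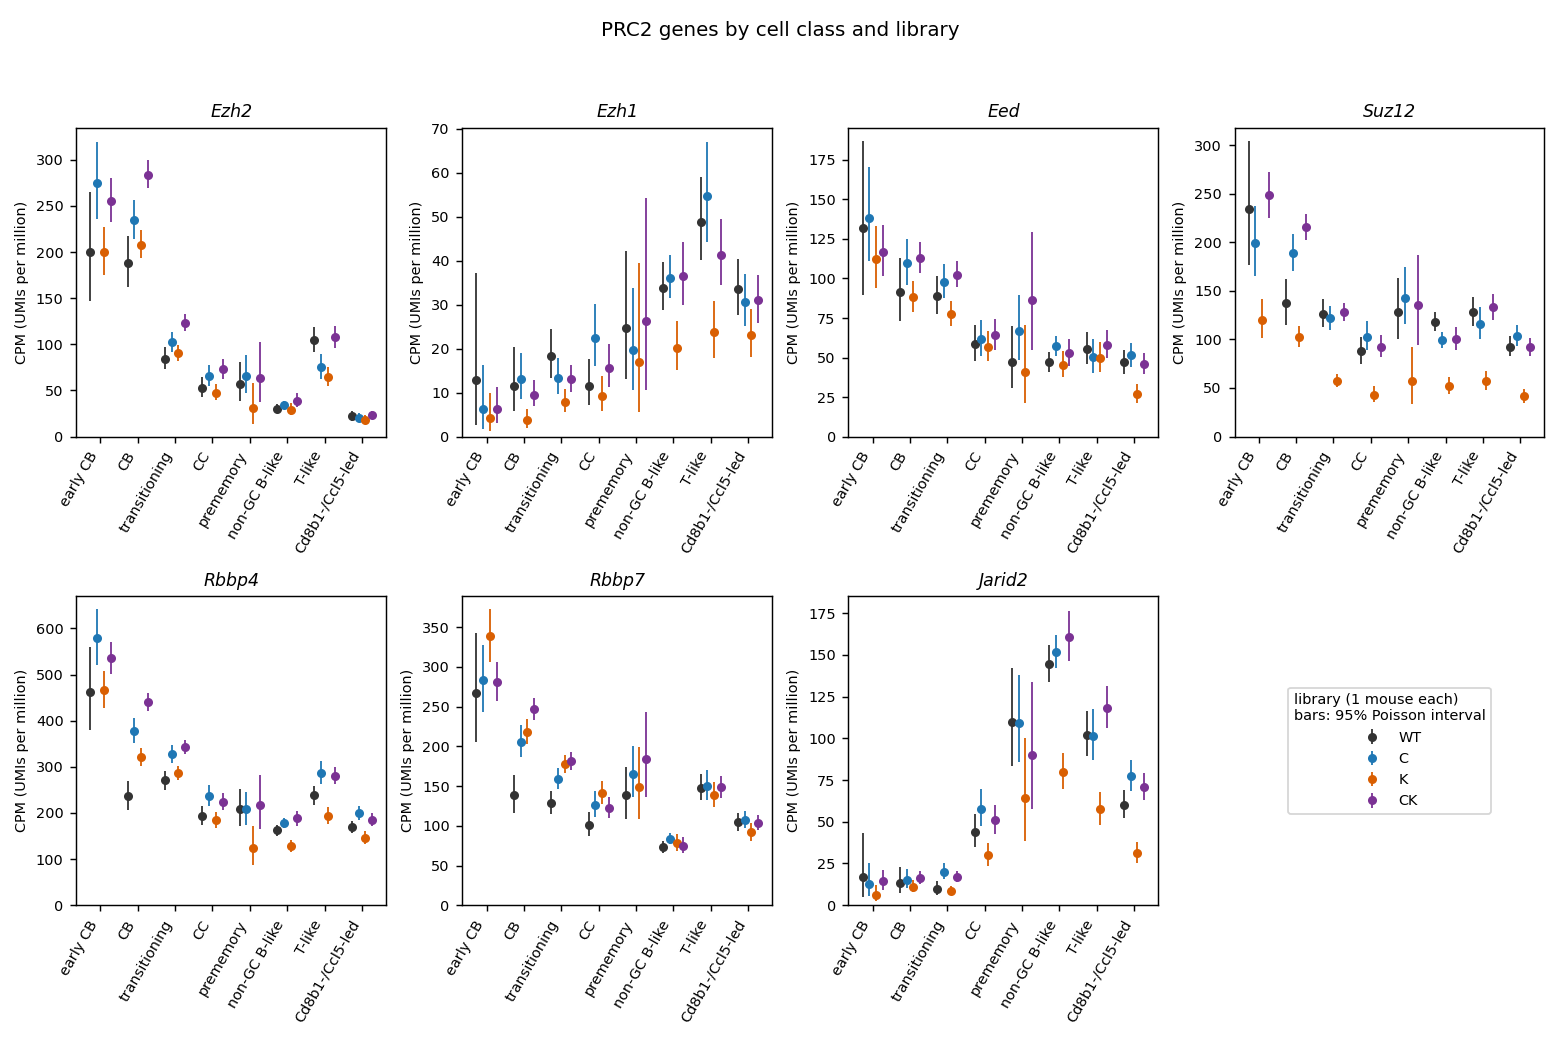
Level of each PRC2 gene (y axis, CPM) in 8 cell classes (x axis, transitioning being trans_CB_CC), with 1 point per library and bars for the 95% Poisson interval, which covers counting error only. Ezh2 ran from 188 to 284 CPM in CB to 29.3 to 38.9 CPM in non-GC B-like cells, and Jarid2 ran the other way, from 11.1 to 16.3 to 79.8 to 161 CPM.

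Ezh1, the other catalytic subunit, had the opposite order. Its level was 11.4 (WT), 12.99 (C), 3.69 (K) and 9.55 CPM (CK) in CB, where 11 to 45 UMIs stood behind each value. In non-GC B-like cells it was 33.9 (WT), 36.2 (C), 20.1 (K) and 36.5 CPM (CK). The groups did not overlap, and CB were 3.37-fold lower than non-GC B-like cells (-1.75 ± 0.15, adjusted p = 6.95e-15). CC had 11.5 (WT), 22.3 (C), 9.19 (K) and 15.5 CPM (CK), which overlapped with CB. The difference of CB from CC was -0.76 ± 0.19 on the log2 scale in the edgeR fit (adjusted p = 9.95e-04), a call lost when every cell was thinned to 2000 UMIs (-0.69, adjusted p = 0.0738). Within WT alone the levels of Ezh1 in CB and CC were almost equal (log2 ratio -0.006, 95% counting interval -1.21 to 1.11).

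Suz12, the scaffold, was higher in CB than in CC in every library. CB had 137 (WT), 189 (C), 103 (K) and 215 CPM (CK), and CC had 88.02 (WT), 103 (C), 43.1 (K) and 92.7 CPM (CK). The K library lay lowest in both classes, so the ranges over libraries overlapped while the difference within each library did not change sign. CB exceeded CC by 0.99 ± 0.10 (adjusted p = 4.69e-13) and non-GC B-like cells by 0.89 ± 0.09 (adjusted p = 3.57e-13).

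Eed, the reader subunit, was 91.5 (WT), 109.7 (C), 88.1 (K) and 113 CPM (CK) in CB and 58.5 (WT), 61.6 (C), 56.7 (K) and 64.2 CPM (CK) in CC, without overlap between the classes. The difference was 0.69 ± 0.09 (adjusted p = 1.94e-09). Rbbp4, a histone-binding subunit, was 237 (WT), 378 (C), 321 (K) and 439.7 CPM (CK) in CB and 194 (WT), 237 (C), 184 (K) and 224 CPM (CK) in CC, a difference of 0.68 ± 0.08 (adjusted p = 8.64e-10). Its relative Rbbp7 was 138 (WT), 206 (C), 218 (K) and 247 CPM (CK) in CB and 101 (WT), 126 (C), 141 (K) and 122 CPM (CK) in CC, a difference of 0.69 ± 0.09 (adjusted p = 2.38e-09). For both, the WT library had the lowest CB level of the 4, which for Rbbp7 lay inside the range of CC and for Rbbp4 just above it. Against non-GC B-like cells the differences in CB were 1.04 ± 0.08 for Eed, 1.13 ± 0.08 for Rbbp4 and 1.43 ± 0.09 for Rbbp7. Early centroblasts had the highest mean level of Eed (125 ± 12.2 CPM), Rbbp4 (511 ± 56.2 CPM) and Rbbp7 (293 ± 31.4 CPM) over the 4 libraries (SD, n = 4, 38 cells in WT), against 101 ± 12.6 CPM, 344 ± 86.3 CPM and 202 ± 45.96 CPM in CB. The spreads of Eed overlapped between these classes.

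Jarid2, the accessory subunit, was low in dividing GC cells and high in non-GC B-like cells. CB had 13.5 (WT), 15.4 (C), 11.1 (K) and 16.3 CPM (CK), trans_CB_CC cells 9.79 (WT), 20.1 (C), 8.67 (K) and 17.03 CPM (CK), CC 43.7 (WT), 57.9 (C), 29.96 (K) and 50.9 CPM (CK), and prememory cells 109.8 (WT), 109.5 (C), 64.2 (K) and 90.1 CPM (CK). Non-GC B-like cells had 145 (WT), 152 (C), 79.8 (K) and 161 CPM (CK). Each step from trans_CB_CC cells onward was upward in every library. A plasma-like cluster outside the annotation (46 to 72 cells per library) lay below CC in every library, at 27.6 (WT), 34.8 (C), 14.1 (K) and 27.3 CPM (CK). CB were 3.25-fold lower than CC (-1.70 ± 0.14, adjusted p = 1.06e-15) and 8.93-fold lower than non-GC B-like cells (-3.16 ± 0.11, adjusted p = 4.84e-31). The latter was the widest difference of the 7 genes between CB and non-GC B-like cells, while between CB and CC that of Ezh2 was wider.

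Of the 7 genes, 5 rose and 2 fell in CB against CC (edgeR with Benjamini-Hochberg adjustment over 10279 genes), where 24.1% of all genes tested were called higher in CB and 23.4% lower. The median log2 difference was 0.69 for the 7 genes and -0.02 for all genes. The split was again 5 and 2 against non-GC B-like cells, with backgrounds of 33.7% higher and 34.0% lower. Among 15 S phase genes and 15 G2M genes all were higher in CB than in CC, with medians of 1.65 and 4.84. The part of the cell cycle in the PRC2 differences was not tested by this comparison. Subtype labels were transferred by the authors from expression, and whether the 7 genes took part is not known. Without the K library all 7 genes were again called in both comparisons. The fit treated class sums of 1 mouse as separate columns, and the 4 mice differed in genotype.

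**Figure D2:**
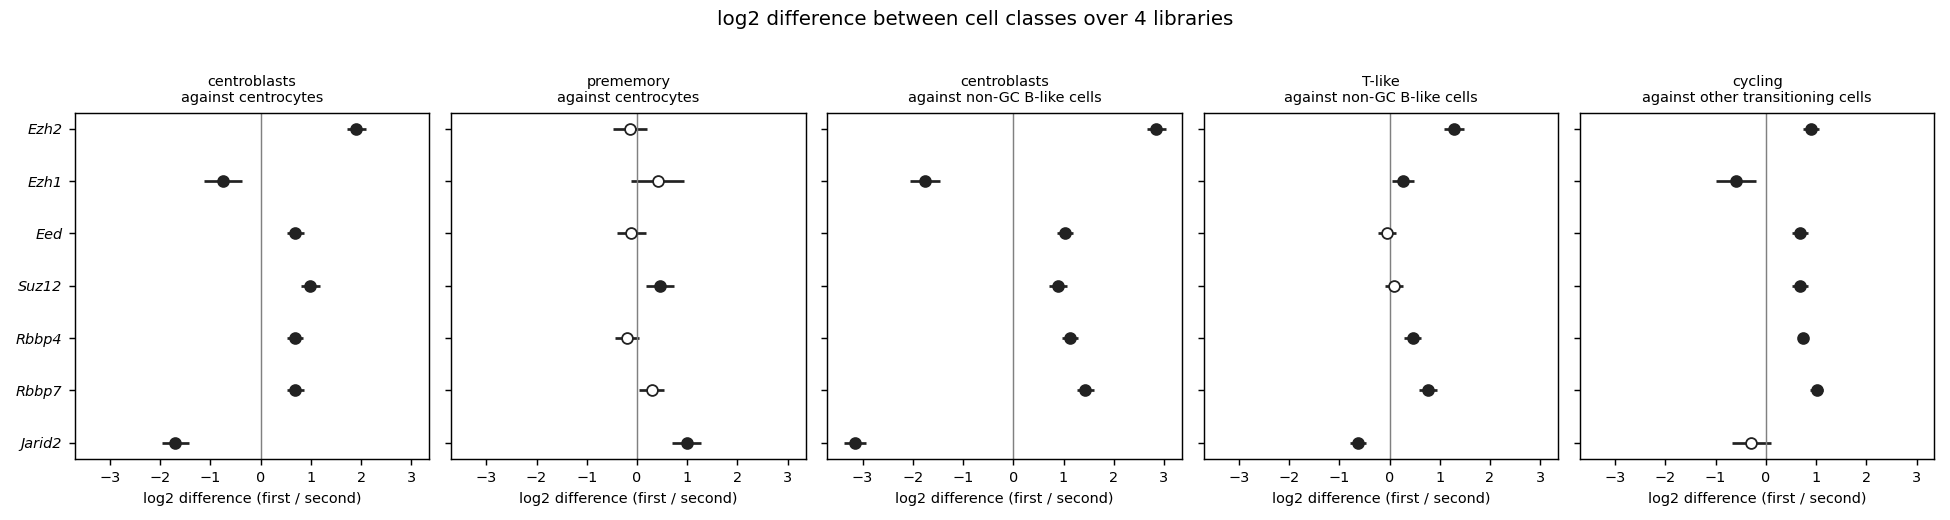
Log2 difference of each PRC2 gene (x axis, first class over second) in 5 comparisons over 4 libraries, with bars for the 95% interval and filled points for an edgeR adjusted p under 0.05. Ezh2 and Jarid2 lie at opposite ends for CB against non-GC B-like cells, at 2.85 and -3.16.

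From CC to prememory cells, which leave the GC reaction toward memory, Jarid2 and Suz12 passed the test and the other 5 genes did not. The 9 GC markers summed to 197 to 266 CPM in prememory cells, 2668 to 3343 CPM in CC and 183 to 240.3 CPM in non-GC B-like cells. The part of this marker difference in the calls was not tested. Jarid2 rose by 0.99 ± 0.14 (adjusted p = 1.19e-07). Suz12 was 129 (WT), 143 (C), 57.4 (K) and 135 CPM (CK) in prememory cells and rose by 0.46 ± 0.14 (adjusted p = 0.00705), a call lost without the C library (0.38, adjusted p = 0.106). Ezh2 was 56.8 (WT), 65.4 (C), 30.4 (K) and 63.8 CPM (CK), and its difference from CC was -0.14 ± 0.18 (adjusted p = 0.587). Calls were thus made for 2 of 7 genes, both higher, while 18.7% of all genes were called higher and 17.3% lower.

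The same genes were read along the deposited pseudotime, which starts in CB and ends in prememory cells. Position is the percent of WT cells that come before a cell, and the path was cut into 5 bins. In WT, Ezh2 was 182, 80.8, 66.5, 54.2 and 51.3 CPM from the first bin to the last. In C it was 238, 101, 60.5, 71.3 and 49.7, in K 196, 85.4, 61.6, 49.2 and 30.7 and in CK 259.8, 111, 82.96, 66.6 and 62.4 CPM. Most of the drop lay between the first and second bins in all 4 libraries. The first bin held 60.6% early centroblasts and CB in WT and 68.8% in CK, so this axis and the subtypes were not independent. Jarid2 was 11.3, 12.1, 20.3, 37.6 and 89.5 CPM in WT and 13.99, 21.6, 32.7, 23.98 and 62.4 CPM in CK. Its last bin was the highest in every library, and the log2 ratio of first over last bin was -2.98 in WT, -2.06 in K and -2.16 in CK, with counting intervals that overlapped. Prememory cells made up 47.8% (WT), 39.9% (C), 18.8% (K) and 12.7% (CK) of the last bin. Ezh1 was 10.7, 13.6, 18.6, 20.2 and 15.3 CPM in WT and 8.20, 13.7, 16.7, 14.7 and 18.4 CPM in CK.

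**Figure D3:**
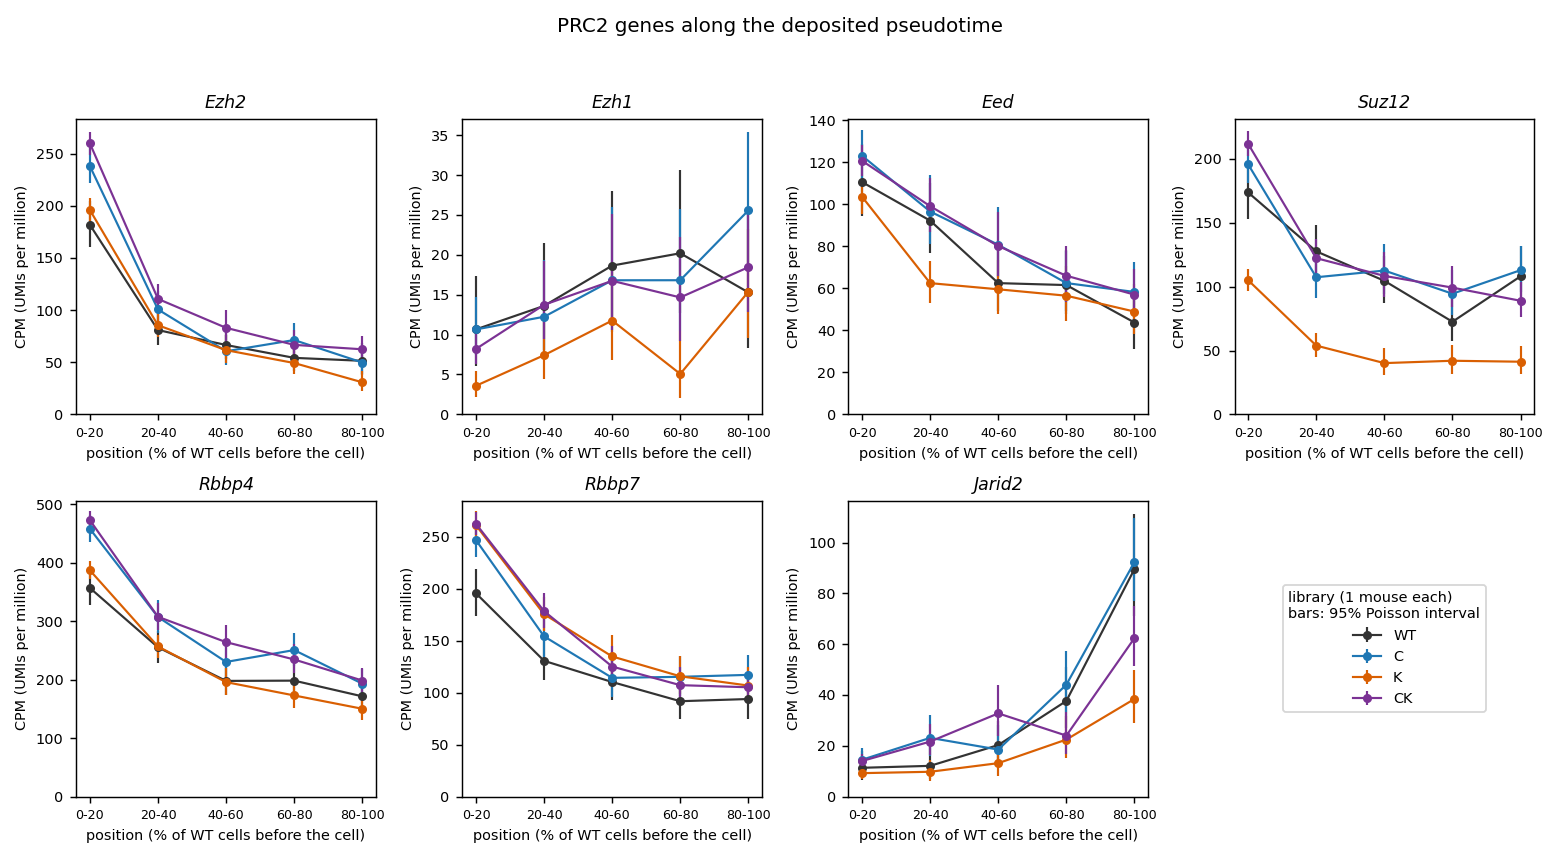
Level of each PRC2 gene (y axis, CPM) in 5 bins of pseudotime position (x axis, percent of WT cells before the cell), with 1 line per library and bars for the 95% Poisson interval. Ezh2 drops from the first to the second bin in all 4 libraries (182 to 80.8 CPM in WT), and Jarid2 is highest in the last.

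Cycling and other cells were then compared inside 1 subtype. Within trans_CB_CC, cells with a positive deposited S or G2M module score were set against the rest. By whichever score was higher, 171 (WT), 329 (C), 559 (K) and 860 (CK) of these cycling cells were S-scored. Only 9 (WT), 9 (C), 17 (K) and 38 (CK) were G2M-scored, so the comparison was mainly one of S-scored cells. Of CB, by contrast, 74.4% (K) to 77.6% (WT) were G2M-scored. Of the 7 genes, 5 rose and 1 fell in the cycling cells (edgeR, 8470 genes tested), where 17.0% of all genes were called higher and 12.1% lower. Rbbp7 rose by 1.01 ± 0.07 (adjusted p = 8.63e-23), Ezh2 by 0.90 ± 0.08 (adjusted p = 1.05e-15), Rbbp4 by 0.74 ± 0.05, Eed by 0.68 ± 0.08 and Suz12 by 0.68 ± 0.08. Ezh1 had a difference of -0.60 ± 0.20 (adjusted p = 0.0187), a call lost under DESeq2, under thinning and without the CK library, with adjusted p-values from 0.0958 to 0.330. Jarid2, which differed so widely between subtypes, had -0.29 ± 0.19 here (adjusted p = 0.284). The genes behind the deposited scores are not listed in the sources used here.

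Inside CB, cells were divided by whichever score was higher and positive, a division chosen after the data were seen. Ezh2 was 303 (WT), 358 (C), 268 (K) and 336 CPM (CK) in S-scored cells, 191 (WT), 223 (C), 209 (K) and 286 CPM (CK) in G2M-scored cells, and 76.1 (WT), 50.8 (C), 46.5 (K) and 47.8 CPM (CK) in CB with neither score. S-scored cells were above G2M-scored cells, and both above the remainder, in every library. Rbbp4 showed the step between the scores more widely, with 646 (WT), 580.4 (C), 552 (K) and 629 CPM (CK) in S-scored and 188 (WT), 349.8 (C), 283 (K) and 408 CPM (CK) in G2M-scored cells. Suz12 was 323 (WT), 267 (C), 154 (K) and 262 CPM (CK) in S-scored and 121 (WT), 184 (C), 96.6 (K) and 209.9 CPM (CK) in G2M-scored cells. Jarid2 stayed between 9.52 and 20.2 CPM in both. The WT value of S-scored CB rests on 18 cells, against 184 in CK.

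**Figure D4:**
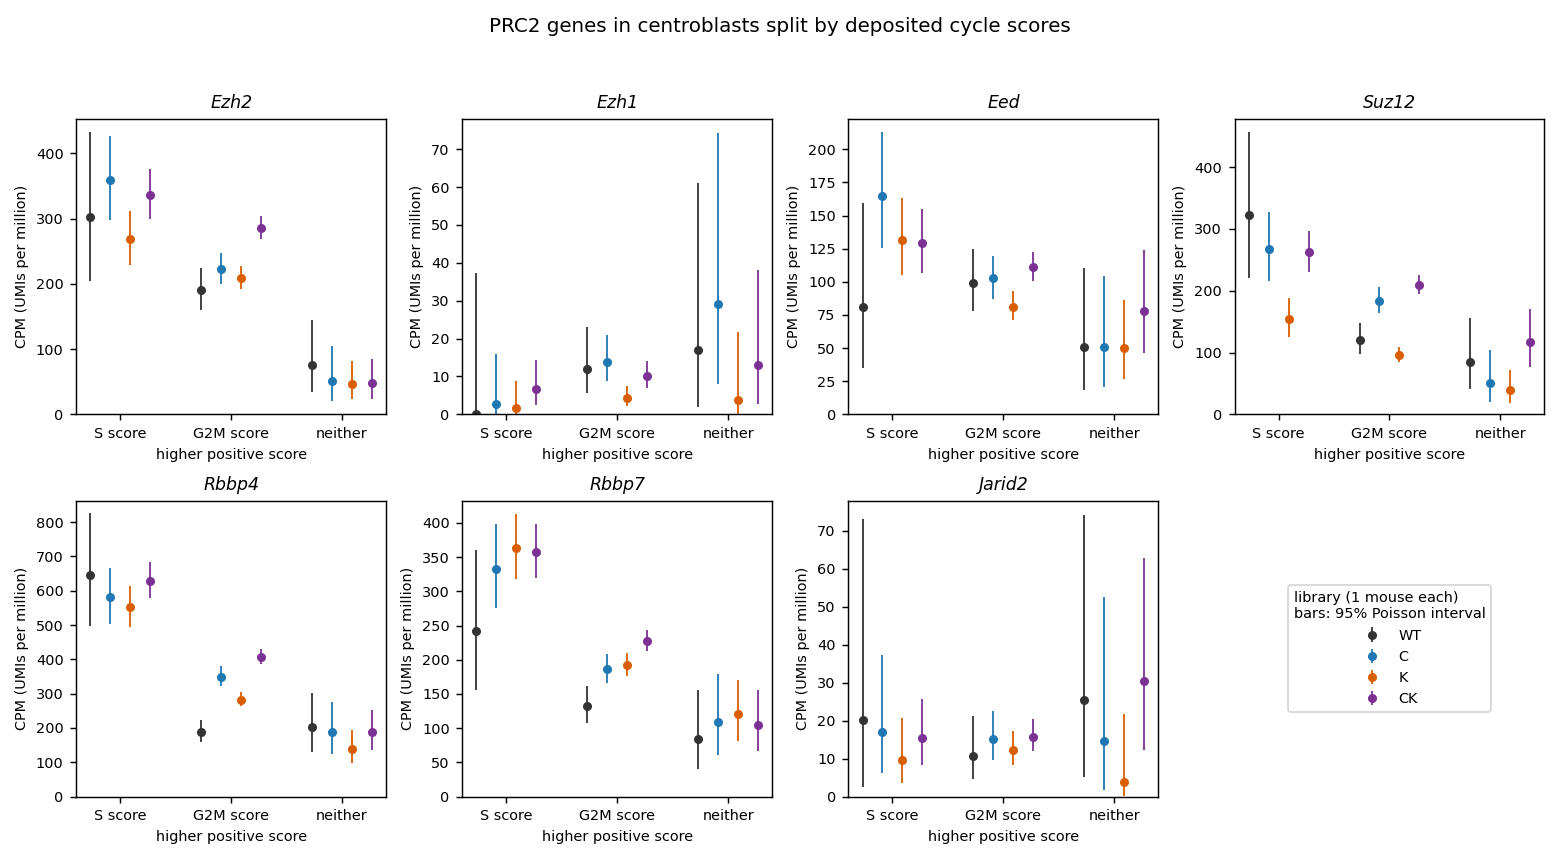
Level of each PRC2 gene (y axis, CPM) in CB divided by the higher positive deposited score (x axis), with 1 point per library and bars for the 95% Poisson interval. Ezh2 lies at 268 to 358 CPM in S-scored cells and at 46.5 to 76.1 CPM in cells with neither score.

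T-like cells, present although B220+ cells were sorted, included a cycling cluster. Their overall Ezh2 level was 105 (WT), 75.04 (C), 64.3 (K) and 108 CPM (CK), against 29.3 to 38.9 CPM in non-GC B-like cells, a difference of 1.28 ± 0.11 (adjusted p = 8.95e-16). The level was carried unevenly by the T-like clusters. An Itm2a- and Eomes-led cluster had 190.0 (WT), 122 (C), 109 (K) and 188 CPM (CK), and its G2M list summed to 1565 to 2658 CPM. The Sostdc1- and Pdcd1-led cluster, the largest, had 77.7 (WT), 56.4 (C), 48.9 (K) and 77.2 CPM (CK) with a G2M sum of 135 to 236 CPM. A Tnfrsf4-led cluster had 60.9 (WT), 54.5 (C), 57.9 (K) and 48.1 CPM (CK), although its G2M sum ran from 141 (K) to 834 CPM (WT). An Ifit1-led cluster of 44 to 80 cells per library had 6.87 (WT), 16.9 (C), 31.3 (K) and 46.1 CPM (CK), on 1 to 8 UMIs. The Cd8b1-led and Ccl5-led clusters together had 21.8 (WT), 20.4 (C), 17.5 (K) and 22.9 CPM (CK), below every overall T-like and non-GC B-like value. The differences between these clusters are a description, since clusters were made from the same cells.

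Against non-GC B-like cells, T-like cells were higher in 4 of the 7 genes and lower in 1, with backgrounds of 30.5% and 30.1%. Beside Ezh2 the higher genes were Rbbp7 (0.76 ± 0.09), Rbbp4 (0.46 ± 0.08) and Ezh1 (0.27 ± 0.11, adjusted p = 0.0340). Ezh1 was 48.8 (WT), 54.7 (C), 23.7 (K) and 41.4 CPM (CK) in T-like cells, and its call was lost without the WT library (adjusted p = 0.116), without the C library (adjusted p = 0.149) and under thinning (adjusted p = 0.172). Jarid2 had a difference of -0.63 ± 0.08 (adjusted p = 1.90e-09), and under thinning the difference shrank to -0.28 (adjusted p = 0.0516). Eed and Suz12 did not pass. The Cd8b1-led and Ccl5-led clusters, with 951 to 1980 cells per library, were not part of this test. In them Ezh2 lay below non-GC B-like cells in every library. Ezh1 lay below them in all but K, at 33.6 (WT), 30.7 (C), 23.0 (K) and 30.9 CPM (CK). Rbbp7 lay above and Jarid2 below non-GC B-like cells in every library, and Rbbp4 lay above in all but CK.

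Genotypes were compared without a test, because each had 1 mouse. In CB, Ezh2 was higher than in WT in all 3 mutant libraries, at log2 ratios of 0.32 (95% interval 0.07 to 0.57) for C, 0.15 (95% interval -0.09 to 0.39) for K and 0.59 (95% interval 0.37 to 0.83) for CK. These exact binomial intervals cover counting error only, so a difference between mice and one between genotypes cannot be told apart. The CK ratio of Ezh2 was 0.55 in trans_CB_CC cells, 0.47 in CC, 0.39 in non-GC B-like cells and 0.04 in T-like cells. Rbbp4 in CB had ratios of 0.67 (C), 0.44 (K) and 0.89 (CK), and Rbbp7 had 0.57, 0.66 and 0.84. Most of these ratios shrank or turned when cells with more detected genes were counted in.

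Past 1.5-fold in CB, in either direction, were 1 of the 7 genes in C, 2 in K and 4 in CK, where 17.0%, 30.7% and 23.5% of all genes with enough counts lay past that fold. The gene in C was Rbbp4, higher, and those in K were Rbbp7, higher, and Ezh1, lower at a log2 ratio of -1.63 (95% interval -2.90 to -0.33). The 4 genes in CK were Ezh2, Suz12, Rbbp4 and Rbbp7, all higher. In trans_CB_CC cells the counts were 1, 2 and 1, beside 10.4%, 27.9% and 15.5% of all genes. In CC they were 1, 1 and 0, beside 11.5%, 27.2% and 12.8%.

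The genotype ratios in CB depended on whether cells with many detected genes were counted. The annotation held 2 cells with 2500 or more genes detected. Unannotated cells at or above that limit, given the label most frequent among their nearest cells, added 472 CB (WT), 401 (C), 490 (K) and 469 (CK). In WT these cells outnumbered the annotated CB. Their Ezh2 level was 286 (WT), 300.2 (C), 248 (K) and 321 CPM (CK), above the annotated CB of the same library in each case. With them added in all 4 libraries, the CK ratio of Ezh2 was 0.15 (95% interval 0.07 to 0.23), that of Rbbp4 0.22, of Rbbp7 0.08 and of Suz12 -0.04. In CK 0 of the 7 genes then remained past 1.5-fold. The share of all genes past that fold in CK also fell, from 23.5% in annotated CB to 9.36%. In K the Ezh2 ratio became -0.23 (95% interval -0.31 to -0.14), that of Rbbp4 turned to -0.10, that of Rbbp7 was 0.09 and that of Suz12 -1.11. In C the ratios became 0.04 for Ezh2, 0.15 for Rbbp4, 0.06 for Rbbp7 and -0.12 for Suz12, which had turned. The log2 ratio of added over annotated CB in WT was 0.61 for Ezh2, 0.80 for Rbbp4, 0.89 for Rbbp7 and 0.86 for Suz12. In CK it was 0.18, 0.09, 0.07 and 0.16. For each of these genes it was highest in WT among the 4 libraries. Why the added cells differed was not tested. S-scored cells were 9.84% (WT), 15.7% (C), 16.6% (K) and 18.2% (CK) of annotated CB. Within S-scored CB, 18 cells in WT, the CK ratio of Rbbp4 was -0.04 (95% interval -0.41 to 0.36), and within G2M-scored CB it was 1.12 (0.87 to 1.38). In S-scored CB it was 0.15 for Ezh2, 0.56 for Rbbp7, 0.68 for Eed and -0.30 for Suz12, each with an interval that included 0. In G2M-scored CB it was 0.58 for Ezh2, 0.78 for Rbbp7, 0.16 for Eed and 0.80 for Suz12. The part of the S-scored shares in the CK ratios was not tested.

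**Figure D5:**
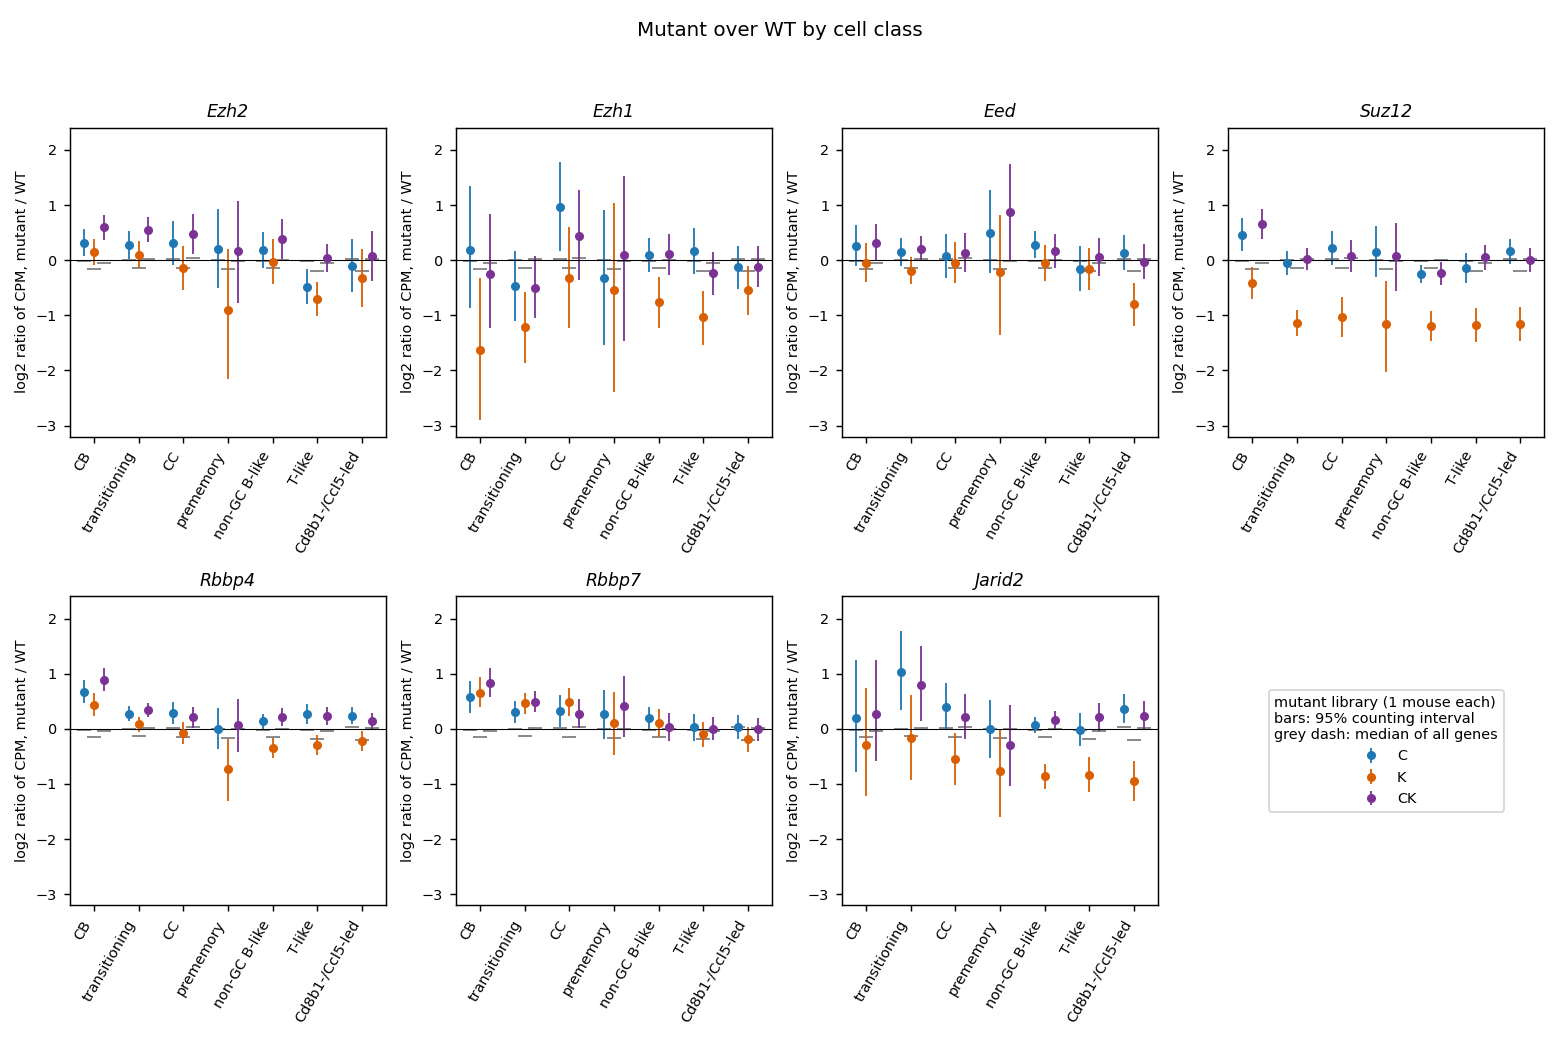
Log2 ratio of CPM, mutant over WT (y axis), for each PRC2 gene in 7 cell classes (x axis), with 1 point per mutant library, bars for the exact 95% counting interval and a grey dash for the median of all genes in that comparison. Suz12 in K lies between -1.19 and -0.42 in all 7 classes, T-like cells included.

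Suz12 in the K library was lower than in WT in every class measured. The log2 ratio was -0.42 (95% interval -0.71 to -0.12) in CB, where it was -1.11 with the cells of 2500 or more genes added, -1.14 (95% interval -1.38 to -0.91) in trans_CB_CC cells, -1.03 (95% interval -1.39 to -0.67) in CC, -1.16 in prememory cells, -1.19 in non-GC B-like cells, -1.16 in the Cd8b1- and Ccl5-led clusters and -1.17 (95% interval -1.48 to -0.87) in T-like cells. CC had 88.02 CPM in WT and 43.1 CPM in K, and T-like cells 128 and 56.99 CPM. Relative to T-like cells, the K ratio of Suz12 was 0.03 in trans_CB_CC cells and 0.14 in CC. It was higher still in annotated CB, whose own ratio was -0.42 against -1.17 in T-like cells. The CK library, which carries the same Kmt2d allele, had ratios over WT of 0.02 in trans_CB_CC cells and 0.07 in CC. Ezh1 and Jarid2 in K were also lower than in WT in all 7 classes, at log2 ratios of -1.04 and -0.83 in T-like cells. Eed in K was lower in all 7 as well, from -0.80 in the Cd8b1- and Ccl5-led clusters to -0.04 in CC, with -0.16 in T-like cells. The median of all genes in K was -0.15 in CB and -0.19 in T-like cells. Rbbp7 was higher, with K ratios of 0.66 in CB, 0.46 in trans_CB_CC cells and 0.48 in CC.

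Jarid2 and Ezh1, low in dividing GC cells, had the highest ratios of any member and class, both in C. Jarid2 in trans_CB_CC cells was 9.79 CPM in WT, 20.1 in C and 17.03 CPM in CK, with log2 ratios of 1.04 (95% interval 0.35 to 1.77) and 0.80 (95% interval 0.14 to 1.51). Ezh1 in CC was 11.5 CPM in WT and 22.3 CPM in C, a log2 ratio of 0.96 (95% interval 0.17 to 1.79). The WT values rest on 24 and 21 UMIs. The erythroid marker list summed to 1045 CPM in the trans_CB_CC cells of C and to at most 4.49 CPM in those of the other libraries, and its part in the Jarid2 ratio was not tested. No other ratio of C or CK over WT in trans_CB_CC cells or CC passed 1.5-fold.

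Other Polycomb genes were read from a list of 27 present in the matrices. In CB against CC, 6 of 26 tested rose, 6 fell and 14 did not pass, with a median of -0.05. Of all genes tested, 24.1% were called higher and 23.4% lower. The Polycomb-like genes split. Phf19 (1.33 ± 0.17, adjusted p = 2.37e-09) and Mtf2 (1.27 ± 0.07, adjusted p = 4.35e-21) rose, while Phf1 fell (-1.54 ± 0.22, adjusted p = 4.68e-08). Mtf2 was 197 (WT), 194 (C), 164 (K) and 204 CPM (CK) in CB and 50.2 (WT), 47.5 (C), 45.4 (K) and 57.7 CPM (CK) in non-GC B-like cells. Phf19 stood 11.4-fold higher in CB than in non-GC B-like cells and Phf1 5.92-fold lower. Kdm6b, encoding a demethylase that removes the PRC2 mark, fell in CB against CC (-1.93 ± 0.27, adjusted p = 3.06e-08) and rested on at most 21 UMIs per library in CB. Among the genes of PRC1, the complex that ubiquitinates histone H2A, 4 of 17 rose and 3 fell, beside those same shares of all genes. Yaf2 (0.85 ± 0.10, adjusted p = 2.29e-10) and Cbx6 (0.61 ± 0.21, adjusted p = 0.0135) rose by at least 1.5-fold, and the catalytic subunit gene Ring1 (-0.62 ± 0.13, adjusted p = 5.86e-05) and Cbx8 (-0.99 ± 0.23, adjusted p = 2.30e-04) fell.

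Against non-GC B-like cells, 7 of these genes rose in CB and 11 fell, beside 33.7% and 34.0% of all genes. Pcgf6 (1.15 ± 0.16, adjusted p = 6.10e-09) joined the higher genes, and Bmi1 (-1.77 ± 0.23, adjusted p = 2.10e-09), Phc3, Pcgf3, Cbx7 and Ring1 were lower by at least 1.5-fold. In prememory cells against CC, 4 rose and 5 fell, beside 18.7% and 17.3% of all genes. Bmi1 (1.56 ± 0.35, adjusted p = 2.74e-04), Rnf2 (0.94 ± 0.20, adjusted p = 1.12e-04), Aebp2 (0.68 ± 0.21, adjusted p = 0.00895) and Kdm6b were higher by that fold, and Phf19 (-2.29 ± 0.55, adjusted p = 6.28e-04) and Cbx8 were lower. In T-like against non-GC B-like cells, 6 rose and 7 fell, beside 30.5% and 30.1% of all genes. Among them were Aebp2 (1.30 ± 0.10, adjusted p = 4.17e-16), which partners Jarid2, upward, and Lcor (-0.93 ± 0.17, adjusted p = 6.64e-06) and Lcorl (-1.004 ± 0.15, adjusted p = 3.15e-08) downward. Epop, Kdm6b and Yaf2 rose there too, and Pcgf3 and Cbx8 fell. In cycling trans_CB_CC cells, 4 of 24 rose and 3 fell, beside 17.0% and 12.1% of all genes. Phf19 (0.78 ± 0.16, adjusted p = 4.33e-05), Pcgf5 and Kdm6b were higher and Phf1 (-1.06 ± 0.24, adjusted p = 2.56e-04) lower by at least 1.5-fold.

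The genes whose levels ran most like Ezh2 over 31 library-by-class profiles, among 5401 genes, were Lmnb1 (r = 0.970), Top2a (r = 0.957), Nsd2 (r = 0.953), Fignl1 (r = 0.953) and Tk1 (r = 0.949), with r Pearson's correlation of log2 CPM. Lmnb1 encodes a lamin, Top2a a topoisomerase of dividing cells and Tk1 a thymidine kinase of S phase. For Ezh1 they were Itga4 (r = 0.940), Kdm5b (r = 0.938), Stambpl1 (r = 0.933), Chd2 (r = 0.922) and Cd84 (r = 0.922). Between members, r was 0.89 for Ezh2 with Rbbp4, 0.88 with Eed, 0.67 with Suz12, -0.63 with Ezh1 and -0.66 with Jarid2, and 0.85 for Ezh1 with Jarid2. The profiles share 4 libraries, so these values are descriptions.

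On the mouse build GRCm38 (GENCODE vM21; mm10 in the submitters' processing notes), the genes lie at chr6:47530139-47595341 (Ezh2), chr11:101191115-101226463 (Ezh1), chr7:89954654-89980983 (Eed), chr11:79993106-80034123 (Suz12), chr4:129307100-129335370 (Rbbp4), chrX:162760402-162779092 (Rbbp7) and chr13:44729474-44921643 (Jarid2), all protein-coding. The 3′ ends of Rbbp4 and Rbbp7, which these libraries read, lie inside Sync and Txlng on the opposite strand, and the strand setting of the counting is not given in the sources used here. Reads from these pairs could not be told apart if it was not used. Rbbp4 and Rbbp7 are close paralogs, and how reads shared between them were counted was not examined.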

How the data were processed

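Libraries were made from sorted spleen cells of 4 mice. Per the file headers, the deposited matrices hold UMI counts, made by the authors with Cell Ranger 3.0.2, and the submitters' notes name mm10 and Seurat 4.0. The deposited cell table holds the authors' subtype names, pseudotime ranks and 2 module score columns for S and G2M genes. Subtypes came from label transfer by the authors. Pseudotime ranks of WT cells were those of its pairing with C.

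UMIs were summed per library and class, for classes of at least 50 cells, and tested in edgeR 4.0.16 (R 4.3.3, TMM, quasi-likelihood, library as a block, threshold 0.05), and scripts were tested on simulated data. Alternatives were DESeq2 1.42.0, other scalings, no filter, thinning and leaving out libraries. Genotype ratios needed 20 UMIs in both libraries together, and a gene at 0 was set to 3 UMIs. Barcodes under 8% mitochondrial UMIs were clustered in scanpy 1.11.5 (2000 variable genes, 30 components, Leiden resolution 1.5, igraph 0.11.9). A cluster was named when at least 3 and at least 50% of the markers of 1 class reached 25% of their highest cluster CPM, GC taking precedence over non-GC B, and left unnamed where another class led its top 10 genes. Cells above the gene limit took the label most frequent among 25 nearest cells. Doublets called by Scrublet stayed in and were removed in an alternative, and clusters with over 50% of them were unnamed. Tools also included numpy 2.4.6, scipy 1.17.1, pandas 2.3.3 and matplotlib 3.10.9.

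Named genes were the 7 members, other Polycomb genes that passed edgeR at 1.5-fold or more, and the 5 genes most correlated with Ezh2 and with Ezh1. A gene that this rule names is not reported here. Members and lists were chosen with earlier results of these data known. Total depth was 33270825 to 39803865 UMIs per library. The counting intervals rest on the UMIs of a gene and of its class, and CB held 962236 UMIs in WT and 4710322 in CK.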

Additional observations from a re-analysis of the deposited data

Results flagged for a closer look

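Mutant-over-WT ratios of 3 genes had opposite signs in 2 cell classes, each with a counting interval that excluded 0, when CB were the annotated cells. With 1 mouse per genotype the difference between the classes was not tested. Ezh2 in C was 0.32 on the log2 scale in CB and -0.48 in T-like cells. Suz12 in C was 0.46 in CB and -0.25 in non-GC B-like cells, and in CK it was 0.65 and -0.23. Rbbp4 in K was 0.44 in CB and -0.74 in prememory cells. With cells of 2500 or more genes added, the CB ratios were 0.04 for Ezh2 in C, -0.12 and -0.04 for Suz12 in C and CK, and -0.10 for Rbbp4 in K, so only Ezh2 in C kept the opposite sign, with an interval that included 0. The non-GC B-like cells of K lay mostly in a cluster of their own, and WT had 183 annotated CB, the fewest of the 4 libraries.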

How the results depend on the processing

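No paired analysis was possible because the genotypes compared had 1 mouse each, while the class comparisons already carried library as a block. In CB against CC and against non-GC B-like cells, every single-gene direction held under the alternatives tried. The 2 members called in prememory cells against CC became 1 without C and 3 without K, under thinning and with cells of 2500 or more genes counted in (Rbbp7 added) and without the low-count filter (Rbbp4 added, lower), and the uncalled Ezh2 difference there turned to 0.11 once those cells were counted in. In T-like against non-GC B-like cells, thinning to 2000 UMIs left 3 of 5 calls, and the uncalled Eed difference (-0.06) was 0.041 with DESeq2 size factors, 0.041 in DESeq2, and -0.10 to 0.057 when 1 library was left out.

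Genotype counts past 1.5-fold moved most. Counting in cells with 2500 or more genes made them 0 for C and 0 for CK in CB and 0 for CK in trans_CB_CC cells. Of all genes, 7.12%, 9.36% and 9.43% then lay past that fold, against 17.0%, 23.5% and 15.5% in the annotated cells. The Suz12 ratio of CK in CB turned to -0.037. Thinning gave 2 (C), 4 (K) and 2 (CK) in CB, beside 20.9%, 31.8% and 28.4% of all genes. It gave 3 for CK in trans_CB_CC cells and 1 for CK in CC, beside 19.8% and 17.7%. Median-of-ratios scaling gave 2 for C in CB and 2 for K in CC, and the mean of per-cell CPM gave 2 for C in trans_CB_CC cells and 2 for K in CC. Relative to T-like cells the counts were 2 (C) and 5 (K) in CB, 3 for C in trans_CB_CC cells, and 2 (C) and 1 (CK) in CC. Set against non-GC B-like cells, the counts were 1 (K) and 2 (CK) in trans_CB_CC cells and 0 for K in CC. For these scalings and the per-cell mean no share over all genes was taken. Suz12 in K turned to 0.03 and 0.14 in trans_CB_CC cells and CC relative to T-like cells, and to 0.044 and 0.16 against non-GC B-like cells. G2M-scored CB gave 2 for C and S-scored CB 1 for CK, both chosen after seeing the data and without a share over all genes. With 10 pseudotime bins the Ezh2 log2 ratio of first over last bin was 2.872 in WT, 2.696 in C and 2.405 in CK. The cause of these shifts was not tested. Of 336 single-gene class differences under alternatives, 319 kept direction and call. Depth limits Ezh1 and Jarid2 most, with 11 Ezh1 UMIs in CB of WT.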
